A study of Homo sapiens with 4 samples.

Results

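The regions described here are γH2AX peaks of mock-treated HepG2 cells that had no counterpart after lipid overload. They were chosen from the deposited peak lists as mock peaks on chromosomes 1 to 22 and X with no lipid-overload peak overlapping or within 1 kb. Of 8521 mock peaks, 4201 met this rule (49.3%, 95% exact binomial interval 48.2 to 50.4). They are called lost below, and the other 4320 kept. Lost means absent from the second list. It does not mean that no γH2AX fragment was there, because signal outside listed peaks was not analysed here.

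HepG2 is an established human liver cancer cell line. CUT&Tag directs a transposase to antibody-bound chromatin, which is cut and tagged in place, and each assay used 100000 cells and 14 PCR cycles. The series has 1 library for each of 4 groups: mock-induced cells (titled DMSO) and lipid overload-induced cells (titled PAOA), each with the γH2AX antibody or with IgG. The IgG libraries, the dose, the duration and the composition of the lipid treatment were not analysed here. Both groups are the same line, without replicates, so every difference below compares 2 libraries, and each interval is a 95% interval that covers counting error only. No test was run, because the peak lists themselves chose the members.

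H2AX is a variant of histone H2A. Kinases of the DNA damage response phosphorylate it around double-strand breaks, and the modified form, γH2AX, recruits repair factors and can spread far along the chromosome from a break. Low levels also occur in unperturbed cells, where replication and transcription are known sources of breaks.

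Lost peaks seldom lay on promoters. Where they did, sequences are shown for the 4 protein-coding genes with the highest such peaks, so that their CpG content can be set beside that of SLC2A8, a promoter with a high kept peak in the width class of the first. Each line holds the 250 bases before a transcription start (RefSeq, GRCh38.p14, gene strand, 5′ to 3′), with CpG dinucleotides in capitals.
ZBTB38: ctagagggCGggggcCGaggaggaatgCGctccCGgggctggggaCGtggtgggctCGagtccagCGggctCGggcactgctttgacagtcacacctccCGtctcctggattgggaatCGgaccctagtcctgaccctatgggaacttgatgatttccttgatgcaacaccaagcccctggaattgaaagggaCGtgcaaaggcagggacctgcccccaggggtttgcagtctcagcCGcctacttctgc
MOV10: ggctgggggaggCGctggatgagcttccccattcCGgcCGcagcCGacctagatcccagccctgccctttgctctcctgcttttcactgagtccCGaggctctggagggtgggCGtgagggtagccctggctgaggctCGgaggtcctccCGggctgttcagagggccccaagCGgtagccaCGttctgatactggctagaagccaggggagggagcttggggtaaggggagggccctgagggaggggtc
SNX10: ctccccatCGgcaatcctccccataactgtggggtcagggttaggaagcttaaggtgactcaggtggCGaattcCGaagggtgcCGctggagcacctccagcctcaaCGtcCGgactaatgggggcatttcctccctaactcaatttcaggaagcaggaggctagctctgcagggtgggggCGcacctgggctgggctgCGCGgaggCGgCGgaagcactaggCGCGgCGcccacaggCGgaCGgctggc
RIPK1: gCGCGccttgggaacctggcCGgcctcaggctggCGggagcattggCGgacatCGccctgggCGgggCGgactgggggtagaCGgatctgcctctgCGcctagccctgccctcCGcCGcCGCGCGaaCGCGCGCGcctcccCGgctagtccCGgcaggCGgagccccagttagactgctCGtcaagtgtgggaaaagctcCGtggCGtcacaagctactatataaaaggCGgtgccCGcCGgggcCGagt
SLC2A8: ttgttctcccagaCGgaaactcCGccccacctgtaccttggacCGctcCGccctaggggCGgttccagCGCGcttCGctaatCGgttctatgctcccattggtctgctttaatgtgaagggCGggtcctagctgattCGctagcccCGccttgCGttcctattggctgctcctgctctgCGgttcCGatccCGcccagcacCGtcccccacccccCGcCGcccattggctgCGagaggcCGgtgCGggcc
The ZBTB38 stretch (chr3:141402764-141403013, + strand) holds 12 CpG and lay wholly under a lost peak of 9 fragments (4.12 to 17.1). ZBTB38 encodes a zinc finger protein that binds methylated DNA. MOV10, an RNA helicase gene (chr1:112674409-112674658, + strand), has 10 CpG and a lost peak of 8 fragments (3.45 to 15.8), with the nearest lipid-overload peak 30.5 kb away. SNX10, a sorting nexin gene (chr7:26291645-26291894, + strand), has 16 CpG, and RIPK1, the kinase gene of cell death and inflammatory signalling (chr6:3063717-3063966, + strand), has 29. Their lost peaks had 7 fragments each (2.81 to 14.4) and covered 57 and 166 of the 250 bases. The nearest lipid-overload peaks were 13.7 and 1.875 kb away. In the kept example, SLC2A8, a sugar transporter gene (chr9:127396919-127397168, + strand), 22 CpG lay under a mock peak of 39 fragments (27.7 to 53.3). CpG number alone therefore did not order the promoters shown as lost or kept, since RIPK1 has more than SLC2A8. This rests on that pair only.

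The first question was how high the lost peaks were. The number of fragments over a summit was solved from the fold and p that the authors deposited. Lost peaks had a median of 4 fragments, with quartiles of 3 and 5, and kept peaks a median of 7, with quartiles of 5 and 10. At 5 fragments or fewer stood 81.6% of the lost peaks (80.4 to 82.8) and 29.9% of the kept ones (28.5 to 31.3). The authors' fold enrichment had a median of 4.25 in lost and 5.35 in kept peaks. Only 41 lost peaks (0.976%, 0.701 to 1.32) had 10 fragments or more, against 1189 kept peaks. Among the 500 highest mock peaks, 4 were lost (0.800%, 0.218 to 2.04), and among the 2000 highest, 155 (7.75%, 6.62 to 9.01).

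The share lost fell as the fragment number rose, and at each number up to 9 it was lower at the ends of coding genes, with intervals that did not overlap. A peak counts as at a gene end where it reaches within 1 kb of the first or last base of a protein-coding gene. Of mock peaks with 3 fragments, 92.2% were lost away from gene ends (90.7 to 93.5) and 40.3% at gene ends (32.6 to 48.3). With 5 fragments the shares were 66.0% (62.9 to 69.0) and 19.0% (15.02 to 23.5), and with 8 fragments 30.0% (24.9 to 35.5) and 5.48% (2.86 to 9.38). From 10 fragments on the intervals of the 2 places overlapped.

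**Figure D1:**
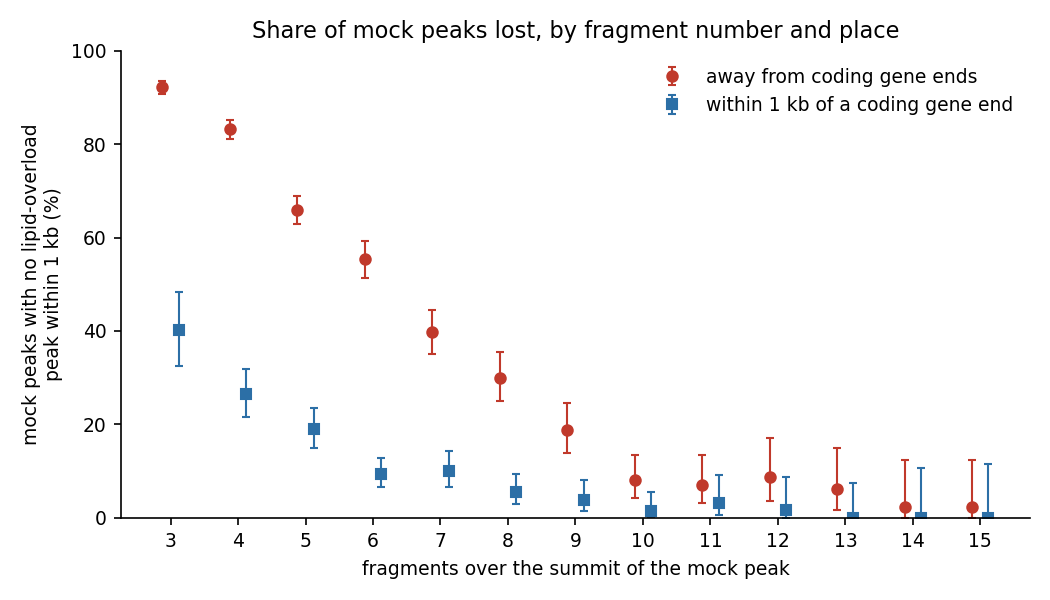
Share of mock peaks that were lost (y axis, percent) against fragments over the mock summit (x axis, 3 to 15), for peaks within 1 kb of a coding gene end (squares) and elsewhere (circles), with exact binomial intervals. Away from gene ends the share runs from 92.2% at 3 fragments to 8.00% at 10, and at gene ends from 40.3% to 1.55%.

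Read from the genome backgrounds, the lipid-overload library was the deeper one, by a factor of 2.62 in fragments. This reading, and every value scaled with it, takes the background to come from the γH2AX library itself. If IgG served as control, which is not known, the background would describe the IgG library. Multiplied by this ratio, 3 mock fragments correspond to 7.87 lipid-overload fragments, with a counting interval of 1.62 to 23.01. The lipid-overload list held peaks from 4 fragments on at the genome background. The local mock background was scaled by 2.39, the ratio of the genome backgrounds in fragments, and not by 2.62. On that background the fewest fragments that would have been listed after lipid overload ranged from 4 to 16 over the lost peaks. This limit had a median of 4. All 4201 lost and all 4320 kept peaks lay above that limit when their scaled number was taken as it stands. Each had already passed the mock cut, with a lowest −log10 p of 4.27 against 3.88 in the lipid-overload list. This comparison therefore could not tell lost from kept peaks. When the lower bound of the scaled number was taken, 643 lost peaks lay above the limit (15.3%), against 2624 of the kept peaks (60.7%). Most lost peaks thus rest on too few fragments for the scaled number to be told from the limit. These are numbers of peaks that had to be listed in mock to be counted, and the part that chance in those counts plays in the losses was not tested.

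The peak caller also reports a local background for each peak. In both lists 100% of the values above the genome floor, in peaks of under 60 fragments, were whole multiples of a single step, to within 0.1 of that step, which, read as 1 fragment end in 10 kb, gives fragment lengths of 137 and 124 bp beside narrowest peaks of 136 and 124 bp. On the same reading as above, the background corresponded to a median of 26 fragment ends in 10 kb around lost mock peaks (quartiles 20 and 44) and 60 around kept ones. Weighted to the widths of the lost peaks, the kept median was 53. The background was at the floor set by the genome mean for 17.1% of the lost peaks (15.99 to 18.3) and 2.15% of the kept ones (1.74 to 2.63). Lost peaks thus had a lower local background than kept peaks. The listing cut ties background to height, because a peak of few fragments is listed only on a low background. Peaks of 3 fragments made up 35.0% of the lost and 4.95% of the kept peaks. Backgrounds were not compared at equal fragment number, so this difference is not a trait apart from height.

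Lost peaks were also narrower. Their median width was 167 bp (136 to 514), against 209 bp (136 to 1182) for kept peaks, and the narrowest peaks were as wide as the fragment length of 137 bp. In the narrowest of 10 width classes, 136 to 144 bp, 68.8% of the mock peaks were lost. In the widest, 308 bp and more, 8.93% were. The differences in height and place were present at equal width. The median was 4 or 5 fragments for lost peaks in every class and 6 to 10 for kept peaks. Peaks at gene ends made up 5.54% to 15.8% of the lost and 32.5% to 52.7% of the kept peaks over the 10 classes.

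**Figure D2:**
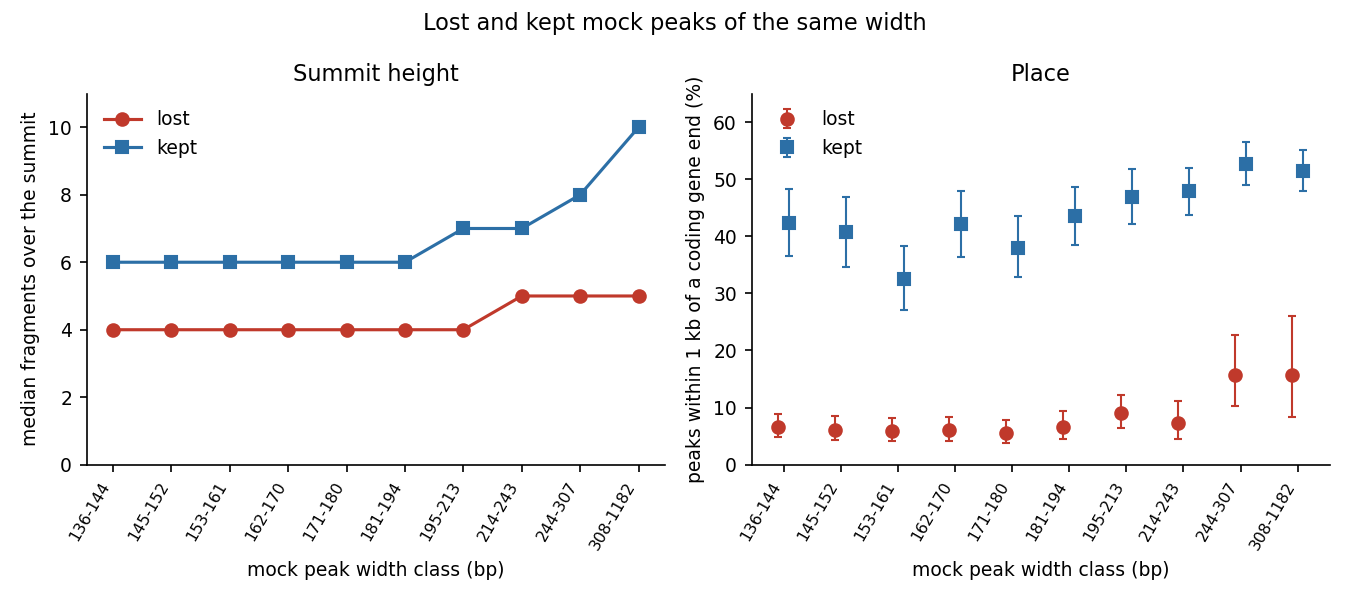
Lost (circles) and kept (squares) mock peaks in 10 classes of peak width (x axis, bp). The left panel gives the median fragments over the summit, 4 to 5 for lost and 6 to 10 for kept peaks, and the right panel the share within 1 kb of a coding gene end (percent, exact binomial intervals), whose intervals do not overlap in any class.

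Lost and kept peaks also differed in place. Of the lost peaks 294 lay at a coding gene end (7.0%, 6.25 to 7.81), against 1982 kept peaks (45.9%, 44.4 to 47.4), or 41.6% after weighting to the widths of the lost peaks. Matched on width and fragment number together, a comparison added after the data had been seen, the kept share was 42.5%. Kept peaks thus lay at gene ends more often than lost ones also at like height and width. Lipid-overload peaks themselves lay at gene ends in 31.0% of cases, and the part of this share in the difference was not tested. Lost peaks inside coding genes but away from their ends numbered 2002 (47.7%, 46.1 to 49.2), against 29.5% for kept peaks of the same width. With gene-end peaks included, the order turned, and peaks inside coding genes made up 52.7% of the lost (51.2 to 54.2) and 55.6% of the kept peaks at equal width. Outside any annotated gene lay 1401 lost peaks (33.3%, 31.9 to 34.8), and 32.7% of the kept ones at equal width. Peaks outside genes but within 1 kb of a gene end count as gene-end peaks in the plot of places, which brings these shares to 31.8% and 20.5%. In the same exclusive classes, genes of long noncoding RNA held 10.9% (10.0 to 11.9) and 6.07%. Without the exclusion of gene-end and coding-gene peaks they held 15.2% of the lost peaks (14.2 to 16.4) and 14.2% of the kept ones at equal width.

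**Figure D3:**
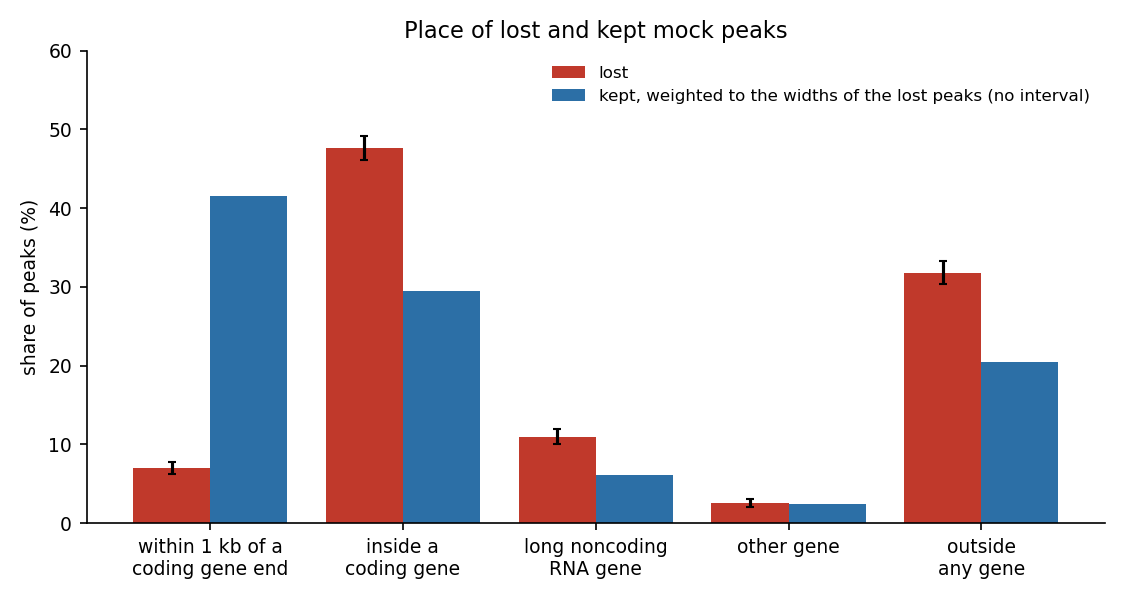
Share of peaks (y axis, percent) in 5 exclusive places, for lost peaks (left bars, exact binomial intervals) and kept peaks weighted to the widths of the lost ones (right bars). Lost peaks stand at 7.0% against 41.6% at coding gene ends, and at 47.7% against 29.5% inside coding genes away from their ends. With gene-end peaks counted too, the shares inside coding genes are 52.7% and 55.6%.

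The strand in the RefSeq promoter table allowed the 5′ and 3′ ends of genes to be told apart on all of these chromosomes except chromosome 8, whose promoters were not used here. Within 1 kb of a transcription start of a coding gene lay 200 of 4026 lost peaks (4.97%, 4.32 to 5.68) and 1790 of 4175 kept peaks (42.9%, 41.4 to 44.4). Within 1 kb of a 3′ end lay 1.89% of the lost (1.49 to 2.36) and 3.59% of the kept peaks (3.05 to 4.20). Of all mock peaks at coding starts 10.1% were lost (8.76 to 11.5), and of those at 3′ ends 33.6% (27.5 to 40.2). The median distance from summit to the nearest start of a coding or long noncoding RNA gene was 26.6 kb for lost and 2.87 kb for kept peaks, or 5.29 kb for kept peaks of equal width. Loss was thus more common at 3′ ends than at starts, in a comparison not matched on fragment number or width.

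Promoters under lost peaks had fewer CpG than promoters under kept peaks, and were not poor in CpG among promoters at large. The 300-base windows around RefSeq starts of coding genes were compared, 116 touched by a lost peak and by no kept one, 1783 touched by a kept peak, and 21983 in all. Median CpG numbers were 22.5, 28 and 21 in this order, and median G+C contents 64.0%, 67.0% and 62.3%. The letters GGGCGG, the core of the binding site of Sp1, were present on either strand in 66.4% of the windows under lost peaks (57.0 to 74.9), 82.0% of those under kept peaks (80.1 to 83.8) and 56.2% of all windows. CCAAT, the core of the NF-Y site, was present in 29.3% (21.2 to 38.5), 46.6% (44.3 to 49.0) and 34.7%. TATAAA was present in 4.31% (1.41 to 9.77), 2.92% (2.19 to 3.81) and 9.50%. No motif contains another. Windows are not independent, since over windows of all kinds 130 lost peaks touched 158 and 1558 kept peaks touched 2147. The intervals do not allow for this. In GGGCGG and CCAAT content, windows under lost peaks were nearer to promoters at large than to promoters under kept peaks.

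Most lost peaks had a lipid-overload peak in the neighbourhood, though not at the same place. The median distance to the nearest was 26.8 kb (quartiles 9.72 and 78.8), and 79.1% had one within 100 kb. How near arbitrary positions lie to a lipid-overload peak was not computed, so these values by themselves are no trait of lost peaks. In 3300 of the 4201 (78.6%) the nearest lipid-overload peak was closer than the nearest other mock peak, with 27270 lipid-overload peaks against 8521 mock peaks on these chromosomes. With the lipid-overload list cut to the mock length, 5477 mock peaks were lost. Over this larger set the order of the medians turned, to 88.7 kb for the nearest lipid-overload peak and 70.7 kb for the nearest other mock peak. Between 1 and 2 kb lay 141 lost peaks (3.36%, 2.83 to 3.95), between 2 and 5 kb 296, between 5 and 10 kb 638, and between 10 and 100 kb 2249. Beyond 1 Mb were 50, of which 64% lay outside genes and 0 at a gene end (up to 7.11%). The nearest lipid-overload peaks were modest, with a median of 7 fragments against 9 in the whole lipid-overload list. For kept peaks the median was 16, but there the nearest is mostly the counterpart required by the rule, so the 2 values are not alike. Kept peaks almost all matched directly: 3898 of 4320 (90.2%) overlapped a lipid-overload peak, and 422 lay apart but within 1 kb.

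**Figure D4:**
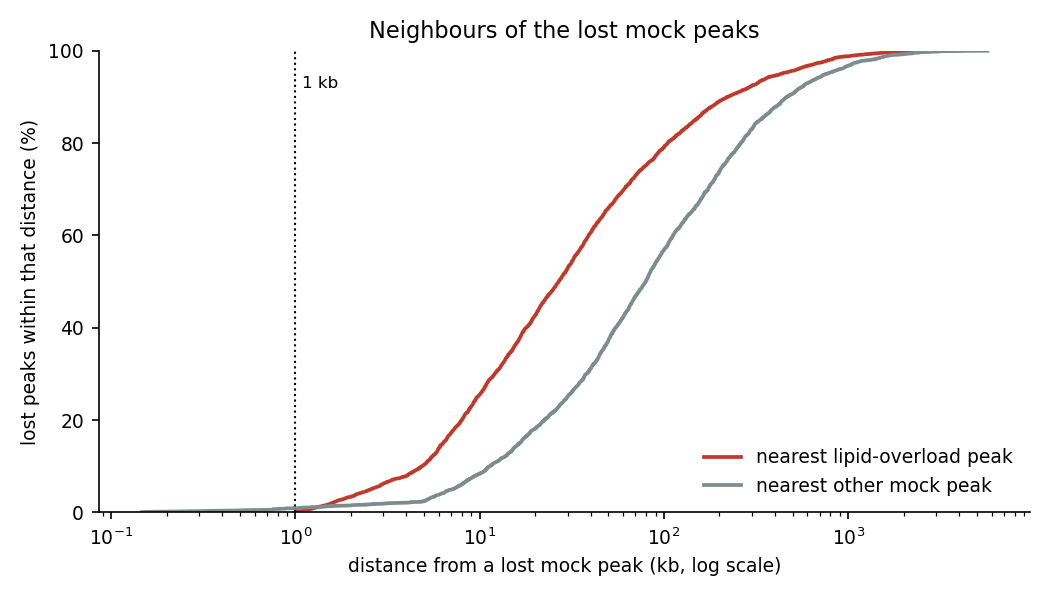
Cumulative share of the 4201 lost peaks (y axis, percent) by distance to the nearest lipid-overload peak and to the nearest other mock peak (x axis, kb, log scale), with the 1 kb limit dotted. The lipid-overload curve lies to the left, with medians of 26.8 kb and 79.6 kb. Over the 5477 peaks lost when the lipid-overload list is cut to the mock length, the order turns, to 88.7 kb and 70.7 kb.

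Peaks on either side of the limit had like heights and places. Between 500 and 1000 bp from a lipid-overload peak stood 118 kept peaks, with a median of 5 fragments and 27.1% at gene ends (19.3 to 36.1). Past 1000 bp and up to 1500 bp stood 71 lost peaks, with a median of 6 fragments and 23.9% at gene ends (14.6 to 35.5). The lost peaks nearest the limit were in IER5, an immediate early gene (6 fragments, 1.001 kb away), in PLEKHA7, an adherens junction gene (3 fragments, 1003 bp), and at the end of SMUG1, a uracil DNA glycosylase gene of base excision repair (8 fragments, 1005 bp). The nearest kept ones were in THOC5, an mRNA export gene (3 fragments, 991 bp), outside genes on chromosome 2 (7 fragments, 990 bp), and in CFAP77 (5 fragments, 969 bp).

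A single lost peak was high. It lay in AVPI1, a gene induced by vasopressin, at chromosome 10, 97678839 to 97679030 (hg38), 8.36 kb from the nearest start, with 36 fragments (25.2 to 49.8) and a fold of 13.03. It was the 54th of the mock peaks by height, and the next lost peak had 17 fragments. Scaled to the lipid-overload depth it would have 94.5 fragments, where 14 would have been listed. The nearest lipid-overload peak had 13 fragments and lay 1.82 kb away, on a local background of 3.48 fragments. At that background 12 fragments would have been listed. Kept peaks of the same width class, 181 to 194 bp, reached 68, 50, 19, 19 and 18 fragments, so only 2 kept peaks of that class were higher. AVPI1 was the only lost peak with 20 or more fragments, among 192 mock peaks of that height.

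The other 9 of the 10 highest lost peaks away from gene ends had 12 to 17 fragments. The second, with 17 fragments (9.90 to 27.2), lay outside genes on chromosome 5 at 543718 to 543922, 1.12 kb from a lipid-overload peak of 26. The third, with 15 fragments (8.40 to 24.7), lay outside genes on chromosome 9 at 135982029 to 135982168. Lost peaks inside genes included those in COL5A1, a fibrillar collagen gene (14 fragments, 7.65 to 23.5), SAPCD2, which acts in spindle orientation, and CFAP74, a cilium gene (13 fragments each, 6.92 to 22.2). MIR23AHG, the host transcript of the miR-23a cluster, also had 13 fragments, and LINC01429 had 12 (6.20 to 21.0). A further peak of 13 fragments on chromosome 10, at 97765113 to 97765311, lay in the same region as AVPI1, and one of 12 lay outside genes on chromosome 6. Nearest lipid-overload peaks of these ranged from 7 fragments, at LINC01429, to 47, at CFAP74.

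At coding gene ends the highest lost peak had 12 fragments. NPBWR2, a neuropeptide receptor gene, had 12 (6.20 to 21.0) at chromosome 20, 64104623 to 64104950. GFUS, which makes GDP-fucose, had 11 (5.49 to 19.7), as had the end of VASN, which lies within CORO7, and a peak between MAMDC4 and the coactivator gene EDF1. EXOC3L4 and NTMT1, an N-terminal methyltransferase gene, had 10 each (4.80 to 18.4). SPON2, MAP3K11, a kinase gene of JNK signalling, NHERF2, a scaffold protein gene, and a peak between CAMSAP3 and XAB2, whose product binds the repair protein XPA, had 9 each (4.12 to 17.1). Those at NTMT1, SPON2 and NHERF2 were within 1 kb of a RefSeq start, and that at GFUS, on chromosome 8, could not be placed in this way. In all, 314 of 19821 coding genes (1.58%) had a lost peak at an end. The rule bars a lipid-overload peak near these lost peaks, and 61 of the 314 (19.4%, 15.2 to 24.2) had one elsewhere at an end.

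Genes that held lost peaks were long. Counting the whole gene with its ends, 1995 coding genes had a lost peak (10.1%). Their median length was 84.8 kb, against 24.5 kb for all coding genes and 35.3 kb for the 3257 genes with a kept peak (16.4%). Per Mb of gene, lost peaks numbered 5.20 in genes under 10 kb, 2.30 in genes of 30 to 100 kb and 1.16 in genes over 300 kb. Kept peaks numbered 22.4, 4.39 and 0.389. Both kinds thinned with length, the kept ones more steeply, so that kept peaks were the more frequent in genes under 100 kb and lost peaks in genes over 100 kb. A kept peak at an end was present in 11.9% of all coding genes. Of all coding genes 58% had a lipid-overload peak anywhere and 43.4% had one at an end. Of the 1545 genes with a lost and no kept peak, 64.9% (62.4 to 67.2) had one anywhere and 35.1% (32.7 to 37.5) at an end. Of all 1995 genes with a lost peak, 43.4% (41.2 to 45.6) had one at an end, but these include genes with a kept peak, which brings a lipid-overload peak within 1 kb by the rule. For the same reason genes with a kept peak are not set beside them.

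SDK1, an adhesion gene of 968 kb, held most lost peaks, with 10, beside 1 kept peak and 6 lipid-overload peaks. TFDP2, which encodes a dimerization partner of E2F, GMDS, an enzyme gene of fucose synthesis, and SHANK2, a synaptic scaffold gene, held 5 each and no kept peak. PRDM16, a transcriptional regulator gene, held 5 beside 2 kept peaks. Lipid-overload peaks in these 4 genes numbered 5, 4, 14 and 8. Genes with many lost mock peaks were therefore not free of peaks after lipid overload.

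Gene groups were described by the share of members with a lost peak anywhere, beside 10.1% of all coding genes. Genes of synapses and neuronal adhesion had one in 9 of 22 (40.9%, 20.7 to 63.6), and genes at common fragile sites, which break under replication stress, in 6 of 20 (30%, 11.9 to 54.3). These genes are very long, with median lengths of 1194 and 1282 kb. They had 0.431 and 0.299 lost peaks per Mb, below the 1.86 of all coding genes. Coding genes over 300 kb, as a class, had 1.16 per Mb, and 39.7% of them had a lost peak. Over the other lists, lost peaks per Mb ran from 0 in ribosomal protein genes to 13.8 in immediate early genes, which had 2 lost peaks. CTNND2, a catenin gene, had 3 lost peaks, the highest with 7 fragments (2.81 to 14.4), and WWOX, the oxidoreductase gene at a fragile site, had 3 of at most 4 fragments (1.09 to 10.2). CTNNA2, a catenin gene, had 1 of 5 fragments (1.62 to 11.7) and no lipid-overload peak anywhere in the gene. CNTNAP5 had 2, and DLG2, which is in both lists, and PDE4D had 1 each.

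Of the genes that signal or repair double-strand breaks, 5 of 22 had a lost peak (22.7%, 7.82 to 45.4), each inside the gene and none at an end. TP53BP1, which directs repair towards end joining, had 5 fragments (1.62 to 11.7), and RNF8, a ubiquitin ligase gene that acts at breaks, had 4 and no lipid-overload peak. XRCC4, MRE11 and RNF168 had 3 each (0.619 to 8.77). TP53BP1 and RNF168 also had a kept peak at the same gene. In lipid overload 17 of the 22 had a gene-end peak, beside 43.4% of all coding genes. The list's median gene length was 71.1 kb, against 24.5 kb for all coding genes. It had 2.69 lost peaks per Mb, beside 1.86 in all coding genes.

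Among groups of lipid metabolism the shares ran from 5% to 12.5%, beside 10.1% of all coding genes, with intervals too wide to tell them from it. The sterol, synthesis and oxidation lists had 5.40, 2.08 and 1.18 lost peaks per Mb, beside 1.86 in all coding genes. These rest on 3, 3 and 1 lost peaks. Of 20 sterol genes 2 had a lost peak (10%, 1.23 to 31.7), and both had one at a gene end. DHCR7, the last enzyme of cholesterol synthesis, had 6 fragments (2.20 to 13.1) in a peak 4.69 kb from a lipid-overload peak. SC5D, the desaturase before it, had 2 lost peaks of 4 fragments each and no lipid-overload peak, the nearest being 306 kb from the one inside the gene. The list had a kept peak in 13 of 20 (65%), beside 16.4% of all coding genes. In the list for fatty acid synthesis and lipid droplets 3 of 24 genes had one (12.5%, 2.66 to 32.4). ACACB, a mitochondrial acetyl-CoA carboxylase gene, and SCD, the stearoyl-CoA desaturase gene, had 6 fragments each, that of SCD at a gene end, and LPIN1, a phosphatidate phosphatase gene, had 5. All 3 had lipid-overload peaks elsewhere, 9 of them in ACACB. Of 20 fatty acid oxidation genes 1 had a lost peak (5%, 0.127 to 24.9). It was CPT1A, the gate of mitochondrial import, with 4 fragments (1.09 to 10.2).

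Of 20 endoplasmic reticulum stress genes 2 had a lost peak, SESN2 with 6 fragments and DNAJC3 with 4, and of 20 p53 targets 2, DDB2 with 8 (3.45 to 15.8) and FDXR with 5. Of 20 immediate early genes 2 had one, FOSL1 with 7 and IER5 with 6. All 6 of these lost peaks lay inside the gene, and each of the 6 genes had a lipid-overload peak at an end. Such a peak was present in 43.4% of all coding genes. It was also present in 15 of 20 endoplasmic reticulum stress genes, 15 of 20 p53 targets and 16 of 20 immediate early genes. Of the 20 ribosomal protein genes 0 had a lost peak (up to 16.8%), while 5 had a kept peak (25%), beside 16.4% of all coding genes. They are short, with a median length of 4.79 kb. Hepatocyte genes had a lost peak in 2 of 20, HNF4A with 4 fragments and TF with 3, and a kept peak in 0. Markers of other cell types had one in 2 of 20, RBFOX3 and VWF with 4 fragments each. Presence of a peak is no measure of expression, so the lists do not bear on the identity of the cells.

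Lost peaks were scattered along the chromosomes more than kept ones. The median distance from a lost peak to the nearest other mock peak was 79.6 kb, against 40.3 kb for kept peaks and 42.2 kb for kept peaks of equal width. Another mock peak lay within 10 kb of 8.40% of the lost peaks (7.58 to 9.28) and of 20.0% of the kept ones (18.8 to 21.2). Within 1 kb the shares were 0.881% and 6.16%, and at that range 1 lipid-overload peak can keep both neighbours. Spacing was not compared at equal fragment number. In windows of 1 Mb, the share lost fell with the number of mock peaks, from 70.8% in windows with 1 mock peak (66.9 to 74.5) to 54.9% in those with 4 to 6 (52.7 to 57.1) and 28.8% in those with 13 or more (26.6 to 31.2). The share of mock peaks at gene ends was between 21.7% and 29.5% in these classes, with no steady trend. Where γH2AX peaks were dense in mock, they were thus more often listed again. The windows were not compared at equal fragment number or equal density of lipid-overload peaks. This difference is therefore not a trait apart from height.

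Some lost peaks did stand together. Windows with 5 or more lost peaks numbered 187 and held 26.0% of them. The fullest, on chromosome 2 between 238 and 239 Mb, had 11 lost among 14 mock peaks, with 3 to 9 fragments, in and around ESPNL, the clock gene PER2, TRAF3IP1 and TWIST2. It held 20 lipid-overload peaks at other places. A window on chromosome 2 between 1 and 2 Mb, with lost peaks in SNTG2, PXDN and MYT1L among others, and one on chromosome 7 between 4 and 5 Mb, with SDK1, AP5Z1 and MMD2, each had 10 lost of 14. On chromosome 17 between 17 and 18 Mb, in MPRIP, FLCN, COPS3 and RAI1, 10 of 18 were lost. On chromosome 11 between 94 and 95 Mb, in HEPHL1, PANX1, MRE11, PIWIL4 and AMOTL1, 9 of 12 were. These 5 windows held 18 to 43 lipid-overload peaks each.

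All mock peaks were lost in 13 of the 649 windows with 5 or more mock peaks, and none in 16. The fullest of the 13, on chromosome 9 between 87 and 88 Mb, had 8 lost peaks, none of them inside a coding gene, and 12 lipid-overload peaks. The longest unbroken run of lost peaks was 18, over 3.02 Mb of chromosome 22 from 24472040 to 27495653, with 3 to 6 fragments each and 37 lipid-overload peaks in between. This stretch includes the crystallin genes CRYBB1, CRYBB2, CRYBB3 and CRYBA4. The longest run of kept peaks was 25.

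The share lost differed between chromosomes. It was lowest on chromosome 19, at 33.1% of 496 mock peaks (28.9 to 37.4), and highest on X, at 62.2% of 119 (52.8 to 70.9). Chromosomes 16 and 17 stood at 41.1% (36.4 to 46.0) and 42.7% (37.8 to 47.6), and chromosome 2 at 59.1% (54.8 to 63.2). Chromosomes 1, 16, 17 and 19 had intervals wholly below the 49.3% of all mock peaks, and chromosomes 2, 3, 6, 10, 13, 15 and X wholly above it. Per Mb up to the last annotated gene, chromosome 19 nevertheless had most lost peaks, 2.80, and X fewest, 0.474. Neighbours in the order by share overlapped in their intervals throughout.

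**Figure D5:**
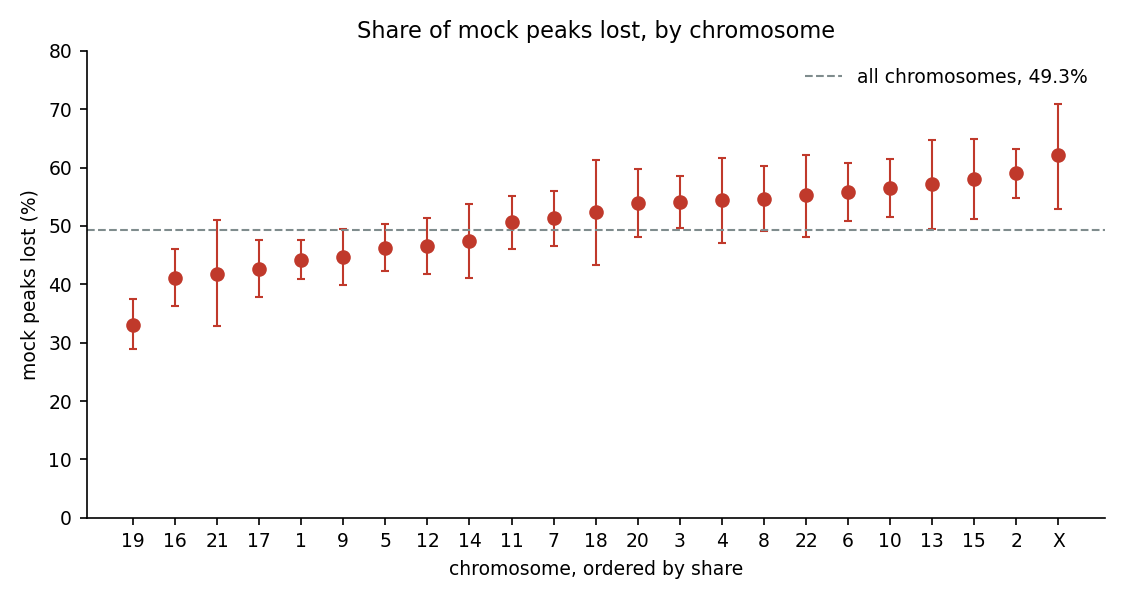
Share of mock peaks that were lost on each chromosome (y axis, percent, exact binomial intervals), in order of the share (x axis), with the share over all chromosomes dashed. Chromosome 19 is lowest at 33.1% and X highest at 62.2%.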

How the data were processed

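γH2AX CUT&Tag peaks of 1 mock and 1 lipid-overload library were compared. The submitters' processing notes name BWA, deepTools, FastQC, MACS2 2.1.2 and build hg38. Settings, and whether IgG served as control, were not given in the sources used here. Score, fold (a linear ratio), −log10 p and −log10 q, and the summit offset, are the authors' deposited values, and peaks were listed per library. The members and the gene lists were chosen with earlier results of these data known.

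Fragments over a summit and the local background were solved from the deposited fold and −log10 p under the MACS2 formulas. A whole number fitted 100% of peaks within 0.0001 in log10 p. In a test on simulated data 100% of 8525 mock and 99.99% of 27216 lipid-overload values were returned. The local background moved in steps of 0.00684 (mock) and 0.00622 (lipid overload), read as 1 fragment end in 10 kb at fragment lengths of 137 and 124 bp. Genome backgrounds of 0.121 and 0.289 fragments, each divided by its step, give the depth ratio of 2.62. Undivided, they give the ratio of 2.39 by which the local mock background was scaled. Depth in reads is unknown.

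Kept peaks were weighted to the lost widths over 10 classes. Genes came from RefSeq, GRCh38.p14 (same coordinates as hg38): 19821 coding genes, after 679 entries out of position order had been set aside, and 34961 promoter windows of 27195 genes. The tables give no exons. GGGCGG and CCAAT were added after TATAAA had been planned. Named were, ranked by fragments, then fold, the 10 highest lost peaks at coding gene ends and the 10 elsewhere, the 5 farthest from a lipid-overload peak, the 5 genes and the 5 windows of 1 Mb with most lost peaks, up to 4 members a gene list, the 3 peaks nearest the limit on each side, and the 5 highest kept peaks of the width class of the highest lost one. RNF168, the crystallin genes and the promoter examples were named after their values were seen. A few genes covered by this rule are not reported here. Python 3.11.15, numpy 2.4.6, pandas 2.3.3 and scipy 1.17.1 were used.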

Additional observations from a re-analysis of the deposited data

How the results depend on the processing

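No paired analysis was possible because each group has 1 library. Of 48 values recomputed under alternatives, 28 stayed within the interval of the reported value, or within 1.5 times for a count. With mock peaks of −log10 q of at least 5 only, 89 of 1412 were lost (6.30%), with medians of 7 fragments and 193 bp, 644 kb to the nearest other mock peak and 31.1 kb to the nearest lipid-overload peak. With lipid-overload peaks of fold at least 5 only, gene ends held 8.98%, and these distances were 72.6 and 47.5 kb. With the lipid-overload list cut to the mock length, 5477 peaks were lost, the median width was 170 bp, gene ends held 12.2%, and the distances were 70.7 and 88.7 kb, in the reverse order of the reported ones. Counting overlap alone as kept gave 9.43% at gene ends and 21.6 kb to the nearest lipid-overload peak, and a limit of 5 kb gave 85.4 and 32.6 kb. Gene ends of 3 kb held 13.6% of the lost peaks, and 47.3% lay outside coding genes. The width-matched 41.6% of kept peaks at gene ends was 45.9% without matching and 47.0% matched on fragment number. Merging moved no value out of its interval. Counts of 3 to 5 fragments limit every statement on a single peak.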

Other observations

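Distances between neighbouring peaks changed at 5 kb in both lists. Of mock peaks, 57 had their nearest mock neighbour between 4 and 5 kb away and 152 between 5 and 6 kb. For lipid-overload peaks the numbers were 671 and 1210. From lost mock peaks to the nearest lipid-overload peak they were 105 and 147. The local background of the peak caller was read as counted over 10 kb, which reaches 5 kb to either side of a summit. Its part in these numbers was not tested.

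The reverse comparison gave more peaks without a counterpart. Of 27270 lipid-overload peaks on the same chromosomes, 22511 (82.5%, 82.1 to 83.0) had no mock peak within 1 kb. They had a median of 8 fragments and lay at coding gene ends in 27.7% of cases, against 7.0% of the lost mock peaks. The mock list held only 8521 peaks on these chromosomes, and the lipid-overload library was read as 2.62 times deeper. The part of list length and depth in these shares was not tested.

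The 5 lost peaks farthest from any lipid-overload peak lay 2229 to 2916 kb away, on chromosomes 2, 4, 13 and X, with 3 or 4 fragments each. The farthest was in LINC00376 on chromosome 13, at 63312356 to 63312542, and the other 4 were outside genes.

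Promoter windows of long noncoding RNA genes under lost peaks, 42 in number, had a median of 7.5 CpG (quartiles 3.25 and 22). Those under kept peaks, 364, had a median of 29 (22 and 35), and all 12806 windows of this kind a median of 5.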
